A study of Mus musculus with 3 samples.

Results

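The marrow niche is the tissue that houses blood-forming cells, and 34 genes that mark its stroma, bone, fat and blood vessels were followed here in bulk bone marrow RNA. The genes were taken by symbol from a fixed list of 34 names, and all 34 had an entry among the 23282 gene entries of the files. They fall into 11 stromal, 8 osteoblast, 6 adipocyte and 9 endothelial members. The samples were 3 vehicle libraries (replicates 1, 2 and 3) of bone marrow from wild type C57BL/6 males, an inbred laboratory mouse strain. The mice were 6 weeks old and took sterile water by gavage over 28 days, with harvest on day 29, and the marrow was depleted of red cells by lysis. The series also studies Asari Radix et Rhizoma, a wild ginger root preparation, but treated samples were not analysed here, so each comparison is between libraries of 1 group.

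Marrow stromal cells surround the sinusoids and feed stem cells with stem cell factor and chemokines. The same mesenchymal lineage gives rise to bone-forming osteoblasts, which lay down and mineralise collagen matrix, and to marrow adipocytes, which store lipid and secrete adiponectin. Endothelial cells line the sinusoids and arterioles of the marrow and receive signals of the VEGF and angiopoietin families. All of these cells are known to be scarce in suspensions of marrow cells, which consist mainly of blood cells and their precursors.

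The libraries held 9168435, 8104828 and 9137125 reads in genes in replicates 1, 2 and 3. Levels are given in CPM, reads per 1000000 reads of the library, and each transcript gave about 1 fragment by its poly(A) end, so levels of different genes are compared without a length correction. A count of 0 allows up to 0.327, 0.370 and 0.328 CPM in replicates 1, 2 and 3, for counting error only. Ribosomal Rn45s held 18.6% to 20.3% of reads and globins 10.1% to 15.1%, lowest in replicate 1, and on these totals the median gene deviated by 0.10, -0.03 and -0.06 log2 units in replicates 1, 2 and 3. Trimmed-mean (TMM) scaling brought those medians to 0.01, 0.00 and 0.01, so its values stand beside the directions below. Neutrophil markers summed to 68451 to 90862 CPM, lowest in replicate 2, and erythroid markers to 75806 to 113103 CPM, lowest in replicate 1. The p-values below set the spread between these samples against counting noise only. Whether each library is a mouse of its own is not in the labels, so that spread may be technical.

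Osteoblast members went separate ways between libraries, and the promoters of Bglap and Ibsp are shown because these genes were highest in different libraries. Both encode proteins of mineralised matrix, osteocalcin and bone sialoprotein. Each window runs from 250 bases before to 50 bases after the start site, from RefSeq on GRCm38.p6, and capitals mark a TATAAA box or a TGTGGT core of RUNX factors, searched on both strands. The Bglap window is chr3:88384417-88384716 on the minus strand, with the box at position -27 and the RUNX core, read on the opposite strand, at position -132 from the start site. The Ibsp window is chr5:104299037-104299336 on the plus strand, with the box read on the opposite strand at position -28 and no match to the RUNX core.
Bglap: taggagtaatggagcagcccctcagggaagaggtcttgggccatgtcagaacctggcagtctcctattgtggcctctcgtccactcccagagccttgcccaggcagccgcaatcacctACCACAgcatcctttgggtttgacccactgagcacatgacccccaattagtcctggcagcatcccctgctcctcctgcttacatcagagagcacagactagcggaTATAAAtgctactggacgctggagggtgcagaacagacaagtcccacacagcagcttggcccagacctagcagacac
Ibsp: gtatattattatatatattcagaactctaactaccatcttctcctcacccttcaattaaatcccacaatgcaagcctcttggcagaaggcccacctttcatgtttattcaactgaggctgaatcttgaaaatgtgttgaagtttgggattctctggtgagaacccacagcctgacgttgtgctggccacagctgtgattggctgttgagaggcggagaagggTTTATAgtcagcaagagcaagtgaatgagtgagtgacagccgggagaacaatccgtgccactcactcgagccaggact

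Of the 34 members, 27 had a promoter in the RefSeq table, with 33 windows in all. TATAAA stood in 7 of these 33 windows and in 13.6% of all 32851 promoter windows of the table. TGTGGT stood in 6 of the 33 windows, near the 16.8% of all windows. The 6 belong to Bglap, Dmp1, Foxc1, Sparc, Spp1 and Stab2. These matches describe letters in a window and are no evidence of binding.

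Together the 34 members gave 412, 479 and 335 CPM in replicates 1, 2 and 3, a mean of 409 ± 72.3 (SD, n = 3). Stromal members summed to 184 ± 27.0 CPM, adipocyte members to 95.8 ± 21.5, osteoblast members to 91.9 ± 21.3 and endothelial members to 36.9 ± 4.49 (SD, n = 3 each). The stromal sum was 4.97-fold above the endothelial sum within a library, a log2 ratio of 2.31 ± 0.04 (SD, n = 3) and positive in 3 of 3 libraries. The adipocyte and osteoblast sums could not be ordered. Their log2 ratio, osteoblast over adipocyte, was 0.17 in replicate 1, -0.16 in replicate 2 and -0.20 in replicate 3. A few genes carried each class, as Igfbp4 made up 50.4% of the stromal sum on average, Ibsp 55.0% of the osteoblast sum, Lpl 60.7% of the adipocyte sum and Adgrl4 33.4% of the endothelial sum. In bulk RNA, fewer cells of a type and less RNA per cell cannot be told apart.

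**Figure D1:**
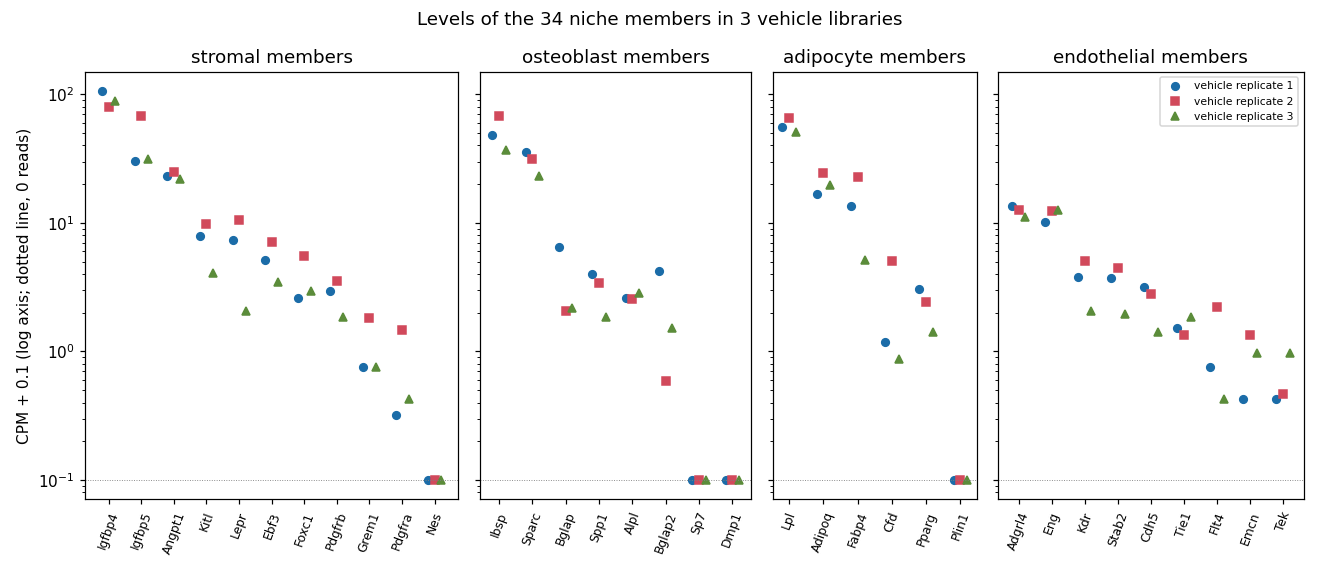
CPM of each of the 34 members in each vehicle library, by class and in order of mean level, with 0.1 added so that members at 0 reads can be drawn on the log axis. Nes, Sp7, Dmp1 and Plin1 lie on the dotted line of 0 reads, and Igfbp4 is the highest member in each library.

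Igfbp4, which encodes a binding protein of insulin-like growth factors, was the most abundant member in each library, at 91.0 ± 13.3 CPM (SD, n = 3). It was followed by Lpl at 57.3 ± 7.20, Ibsp at 50.8 ± 15.6 and Igfbp5 at 42.9 ± 21.2 CPM, whose spreads overlap one another. Sparc stood at 30.04 ± 6.57, Angpt1 at 23.3 ± 1.497, Adipoq at 20.3 ± 3.90 and Fabp4 at 13.8 ± 8.84 CPM. The highest endothelial members came next, Adgrl4 at 12.3 ± 1.14 and Eng at 11.6 ± 1.32 CPM, and the 20 members with reads below them had means of 0.524 to 7.18 CPM. Defining genes of stroma, bone and fat were among those without reads. The intermediate filament gene Nes, the osteoblast factor gene Sp7, the osteocyte gene Dmp1 and the lipid droplet coat gene Plin1 had 0 reads in all 3 libraries, which allows up to 0.114 CPM over the 26410388 reads, provided that their reads could be counted.

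Between libraries, 17 of the 25 members with at least 30 reads differed past counting noise, beside 55.6% of all 11833 genes tested (each library set against the remaining 2 in an exact binomial test, with Benjamini-Hochberg adjustment over all genes). With TMM scaling 15 of 25 differed, beside 50.8% of all genes, and Spp1 and Stab2 were the calls lost. By class on library totals, the calls were 6 of 8 stromal, 5 of 6 osteoblast, 4 of 5 adipocyte and 2 of 6 endothelial members. The stromal and adipocyte calls held with TMM scaling, while the osteoblast and endothelial calls went to 4 and 1. Whether the classes differ in their share of calls was not tested. A call here says only that the 3 libraries are unequal.

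Leaving out a library also lowered the count, with fewer reads and 1 comparison in place of 3. It was 12 of 23 tested members without replicate 1, 10 of 23 without replicate 2 and 10 of 24 without replicate 3, beside 33.996%, 38.4% and 37.9% of all genes. Ibsp and Fabp4 were the only members called in each of the 3 pairs of libraries. Bglap and Bglap2 are near copies whose reads cannot be separated, and counted as 1 gene they left 16 calls among 24 tested members. That alternative was added once the data had been seen.

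Replicate 2 held the highest level of most tested members and replicate 3 the lowest. Of the 25, 14 were highest in replicate 2 against 27.9% of all genes tested, or 15 against 33.7% with TMM scaling. In replicate 3, 16 were lowest against 42.4% of all genes, or 14 against 32.4% with TMM scaling. Among calls, 12 of the 25 were called and highest in replicate 2, beside 14.6% of all genes, 11 were called and lowest in replicate 3, beside 25.8%, and 5 were called and highest in replicate 1, beside 30.8%. With TMM scaling these counts were 11, 8 and 4 of the 25, beside 2085, 1885 and 1866 of all 11833 genes. The last of these was then near the share of all genes. By class, 7 of 8 stromal, 1 of 6 osteoblast, 4 of 5 adipocyte and 2 of 6 endothelial members were highest in replicate 2. With TMM scaling these counts were 7, 1, 4 and 3. Lowest in replicate 3 were 5 of 8 stromal, 3 of 6 osteoblast, 4 of 5 adipocyte and 4 of 6 endothelial members. With TMM scaling 4, 3, 3 and 4 were lowest there. The exact order of replicate 2 highest and replicate 3 lowest was held by 11 members, against 16.8% of all genes. It was held by 5 of 8 stromal, 1 of 6 osteoblast, 3 of 5 adipocyte and 2 of 6 endothelial members. These 11 were Kitl, Lepr, Angpt1, Pdgfrb, Ebf3, Ibsp, Fabp4, Cfd, Lpl, Kdr and Stab2, of which Angpt1 and Pdgfrb did not pass the test. With TMM scaling 10 held it, against 16.6%, as Angpt1 and Lpl were then lowest in replicate 1 and Adgrl4 joined. The median tested member deviated by 0.13, 0.29 and -0.42 log2 units in replicates 1, 2 and 3, and by 0.04, 0.31 and -0.36 with TMM scaling. In replicate 3 the stromal, osteoblast, adipocyte and endothelial medians were -0.44, -0.40, -0.65 and -0.43, beside -0.06 for all genes. With TMM scaling they were -0.37, -0.33, -0.58 and -0.36, beside 0.01. Low neutrophil markers in replicate 2 accompanied the high niche members there, and the part of this in the result was not tested.

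**Figure D2:**
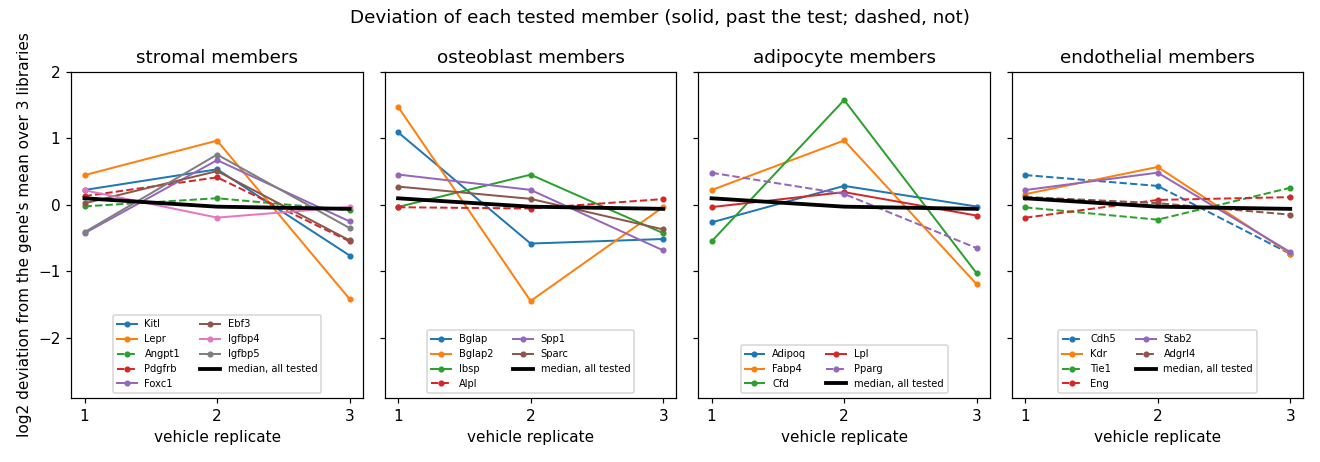
Log2 deviation of each tested member from its own mean over the 3 vehicle libraries, on library totals with 0.5 reads added, by class. Lines join the values of 1 gene, the libraries have no order, and the black line is the median of all 11833 genes tested. Lepr, Fabp4 and Cfd stand highest in replicate 2, while Bglap and Bglap2 stand highest in replicate 1.

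Among the stromal ligands, Kitl was lower in replicate 3 and Angpt1 did not pass the test. Kitl (GRCm38 chr10:100015630-100100416, plus strand) encodes stem cell factor, the ligand of the receptor Kit, and had 7.85, 9.75 and 3.94 CPM in replicates 1, 2 and 3 (adjusted p = 8.30e-05, exact binomial). Replicates 1 and 2 lay above replicate 3, and without replicate 3 Kitl was not called (adjusted p = 0.340, exact binomial test). Angpt1, the angiopoietin that activates the receptor Tek, had 22.9, 24.9 and 22.0 CPM (adjusted p = 0.830, exact binomial). Its CV of 6.43% was below the 7.01% that counting alone would give. Grem1, an antagonist of bone morphogenetic proteins, had 6, 14 and 6 reads, under the minimum for the test.

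The stromal receptor gene Lepr (chr4:101717404-101815352, plus strand), which encodes the leptin receptor and marks perisinusoidal stroma, had the smallest adjusted p of the tested member receptors. It had 7.31, 10.5 and 1.97 CPM in replicates 1, 2 and 3, from 67, 85 and 18 reads (adjusted p = 5.33e-11, exact binomial). Replicate 2 stood 5.32-fold above replicate 3 (exact 95% interval for counting 3.17 to 9.41), and the call was lost without replicate 3 (exact binomial p = 0.0780 after adjustment). The receptors for platelet-derived growth factors were low. Pdgfrb had 2.84, 3.45 and 1.75 CPM in replicates 1, 2 and 3 and did not pass the test (adjusted p = 0.202, exact binomial). Pdgfra had 2, 11 and 3 reads, highest in replicate 2. With a read minimum of 10 Pdgfra was called (adjusted p = 0.02498, exact binomial test).

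The transcription factor genes of the stroma were highest in replicate 2. Foxc1, a forkhead factor that maintains the stromal niche, had 2.51, 5.43 and 2.85 CPM (adjusted p = 0.00829, exact binomial). Ebf3, which keeps the niche from turning to bone, had 5.02, 7.03 and 3.39 CPM (adjusted p = 0.0292, exact binomial). Leaving out replicate 2 ended both calls (exact binomial p = 0.854 for Foxc1 and 0.205 for Ebf3 after adjustment), and Ebf3 was also not called without replicate 3 (0.2004).

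The binding proteins of insulin-like growth factors moved in opposite directions between replicates 1 and 2. Igfbp5 had 29.99, 67.4 and 31.3 CPM in replicates 1, 2 and 3, so replicate 2 alone stood high, 2.25-fold above replicate 1 (adjusted p = 1.56e-35, exact binomial). Without replicate 2 it was not called (adjusted p = 0.761, exact binomial test). Igfbp4 had 105, 79.2 and 88.5 CPM, lowest in replicate 2 (adjusted p = 1.94e-06, exact binomial), and was not called without replicate 1 (0.0934). The log2 ratio of Igfbp4 to Igfbp5 was 1.81, 0.23 and 1.5001 in replicates 1, 2 and 3. The stromal sum, of which Igfbp4 is the largest part, was 185, 211 and 157 CPM. Without Igfbp4 the sum was 79.3, 132 and 68.2 CPM, with exact 95% intervals for counting of 73.6 to 85.3, 124 to 140 and 62.9 to 73.8.

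Osteoblast members did not share an order of libraries: the osteocalcin genes were highest in replicate 1 and Ibsp in replicate 2. Sparc and Spp1 were highest in replicate 1 but lowest in replicate 3, as was Ibsp. Their replicates 1 and 2 did not differ past the test (adjusted p = 0.239 for Sparc and 0.729 for Spp1, exact binomial). On GRCm38 in the GENCODE annotation, Bglap spans chr3:88383501-88384464 and Bglap2 chr3:88377736-88378699, both on the minus strand, and Ibsp spans chr5:104299171-104311469 on the plus strand. The osteocalcin gene Bglap had 6.44, 1.97 and 2.08 CPM in replicates 1, 2 and 3, from 59, 16 and 19 reads (adjusted p = 1.26e-06, exact binomial). Its neighbour Bglap2 had 38, 4 and 13 reads, again highest in replicate 1 (adjusted p = 8.16e-06, exact binomial). Replicate 1 was the only library that stood high for both genes. The annotated Bglap and Bglap2 transcripts are 99.7% identical over their last 300 bases, where reads of this assay start, and another copy, Bglap3, has 96.7% identity to Bglap there. The 3 entries are therefore not independent measurements. Summed, they had 117, 21 and 40 reads, and replicate 1 stood 4.93-fold above replicate 2 (exact 95% interval for counting 3.08 to 8.25, exact binomial adjusted p = 6.34e-15). Without replicate 1 Bglap was not called (adjusted p = 1, exact binomial test), and Bglap2 fell under the read minimum.

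Ibsp, the bone sialoprotein gene, had 48.2, 67.5 and 36.7 CPM in replicates 1, 2 and 3, highest in replicate 2 (adjusted p = 3.16e-14, exact binomial). The osteocalcin genes stood high in replicate 1 instead, and Bglap did not differ between replicates 2 and 3 past the test. The log2 ratio of Ibsp to the summed Bglap and Bglap2 reads was 2.19, 4.77 and 3.39. Sparc, which encodes the collagen-binding protein osteonectin, had 35.8, 31.5 and 22.9 CPM (adjusted p = 1.51e-05, exact binomial). It was lowest in replicate 3 and was not called without that library (adjusted p = 0.239, exact binomial test). Spp1, the osteopontin gene, had 3.93, 3.33 and 1.75 CPM, also lowest in replicate 3 (adjusted p = 0.0436, exact binomial, but 0.0947 with TMM scaling and 0.0531 with no read minimum). It was called in the pair without replicate 2 (0.0245), but not without replicate 1 (0.126) or replicate 3 (0.729). Alpl, the alkaline phosphatase of mineralising cells, had 2.51, 2.47 and 2.74 CPM (adjusted p = 1, exact binomial). Osteoclast markers, of cells that also make osteopontin, summed to 24.8 to 34.04 CPM with 3 of 7 at 0 reads (Ocstamp, Dcstamp and Calcr), and their part was not tested. Megakaryocytes also express Sparc, and their 9 markers summed to 495, 412 and 409 CPM, none at 0 reads in all libraries. Their part was not tested either.

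The osteoblast sum of 101, 107 and 67.5 CPM thus joined genes with different orders. Without Ibsp it was 52.8, 39.7 and 30.9 CPM, highest in replicate 1 and with exact 95% intervals for counting of 48.2 to 57.7, 35.5 to 44.3 and 27.4 to 34.7. With TMM scaling the sum without Ibsp was 49.4, 40.5 and 32.3, in the same order.

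**Figure D3:**
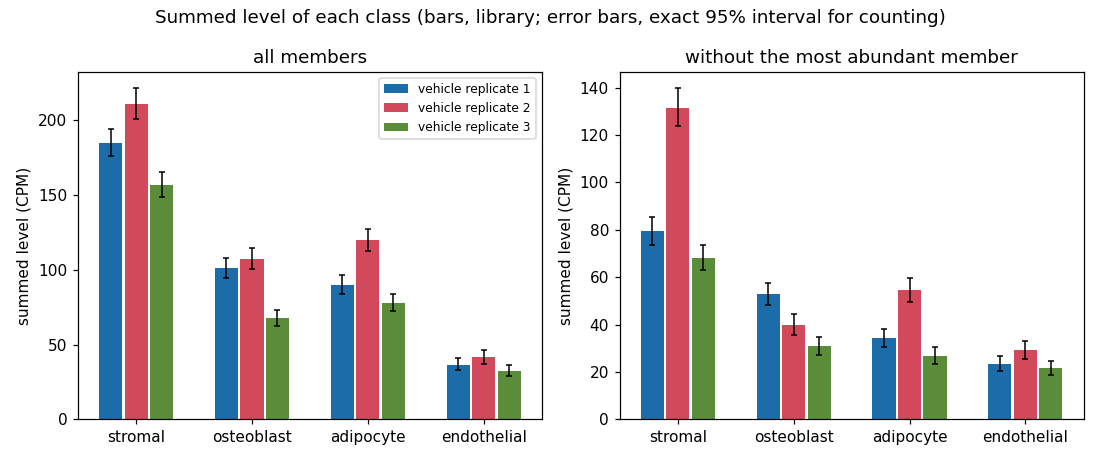
Summed CPM of each class in each vehicle library, with all members (left) and without the most abundant member (right). Error bars are exact 95% intervals for counting error. Without the most abundant member the stromal, adipocyte and endothelial sums are highest in replicate 2 and the osteoblast sum is highest in replicate 1.

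Of the 5 tested adipocyte members, all but Pparg were highest in replicate 2. Fabp4 (chr3:10204088-10208576, minus strand), which encodes a fatty acid binding protein of fat cells, had 13.5, 22.7 and 5.03 CPM in replicates 1, 2 and 3 (adjusted p = 4.83e-18, exact binomial). Replicate 2 stood 4.51-fold above replicate 3 (exact 95% interval for counting 3.25 to 6.37). Cfd, the adipsin gene, had 10, 40 and 7 reads, and replicate 2 alone was high (adjusted p = 6.06e-08, exact binomial). These 2 genes had the widest spread of the class, with CVs of 64.2% and 102%.

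Adipoq and Lpl moved less. Adipoq, the adiponectin gene, had 16.7, 24.4 and 19.7 CPM in replicates 1, 2 and 3 (adjusted p = 0.00981, exact binomial), and was not called without replicate 1 (0.101) or replicate 2 (0.2497). Lpl, the lipase that releases fatty acids from circulating lipoproteins, had 55.7, 65.1 and 51.0 CPM (adjusted p = 0.00251, exact binomial), and was not called without replicate 2 (0.289). Pparg, the master factor of fat cell differentiation, had 27, 19 and 12 reads (adjusted p = 0.142, exact binomial). The log2 ratio of Fabp4 to Adipoq was -0.30, -0.11 and -1.97, so Fabp4 was furthest below Adipoq in replicate 3. Macrophages also express Fabp4 and Lpl, and their 11 markers summed to 424 to 432 CPM, with none at 0 reads in all libraries. Without Csf1r, the most abundant of them, the sum was 300, 299 and 266 CPM in replicates 1, 2 and 3. The markers did not share an order. Of the 10 tested, 3, 4 and 3 were highest in replicates 1, 2 and 3, beside 49.2%, 27.9% and 22.8% of all genes. The part of macrophages was not tested. Without Lpl the adipocyte sum was 34.2, 54.4 and 26.8 CPM.

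Endothelial members varied least as a sum, at 36.5, 41.6 and 32.6 CPM in replicates 1, 2 and 3, a CV of 12.2%. The exact 95% intervals for counting were 32.7 to 40.7, 37.3 to 46.3 and 29.02 to 36.5, so replicate 1 overlapped both of the others and replicates 2 and 3 did not overlap. This sum was led by Adgrl4 and Eng, at means of 12.3 and 11.6 CPM. The median tested endothelial member deviated by -0.43 log2 units in replicate 3, near the -0.44 of the stromal members. Among receptors, Kdr, the main receptor of VEGF, had 3.71, 4.94 and 1.97 CPM (adjusted p = 0.0155, exact binomial). Kdr was lowest in replicate 3, and was not called without replicate 2 (0.0855) or replicate 3 (0.402). Stab2, a scavenger receptor of sinusoids, had 3.60, 4.32 and 1.86 CPM (adjusted p = 0.0286, exact binomial), and with TMM scaling it was not called (0.0668). The Stab2 call was also lost without replicate 2 (0.0787) or replicate 3 (0.666). Cdh5, the endothelial cadherin of cell junctions, had 28, 22 and 12 reads, likewise lowest in replicate 3 (adjusted p = 0.0673, exact binomial), and passed the test in the pair without replicate 2 (0.0454). The angiopoietin receptor Tek had 3, 3 and 8 reads, its relative Tie1 had 13, 10 and 16 (adjusted p = 1, exact binomial), and the sialomucin gene Emcn had 3, 10 and 8. Flt4, the VEGF receptor of lymphatic and sinusoidal vessels, had 6, 17 and 3 reads. With a read minimum of 10 it was called, highest in replicate 2 (adjusted p = 0.00480, exact binomial test).

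The most abundant endothelial members did not pass the test. Adgrl4, an adhesion receptor of vessels, had 13.3, 12.5 and 11.1 CPM in replicates 1, 2 and 3 (adjusted p = 0.746, exact binomial). Eng, a co-receptor of the TGF-beta family, had 10.1, 12.2 and 12.6 CPM (adjusted p = 0.433, exact binomial, and 0.0861 with TMM scaling). Their CVs of 9.27% and 11.3% stood near the 9.64% and 9.90% that counting alone would give. Eng overlaps Fpgs on the opposite strand in the GENCODE annotation, and without the strand setting reads of that overlap cannot be assigned. Blood stem cells and erythroid precursors also express Eng, and the part of other cells in its level was not tested.

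**Figure D4:**
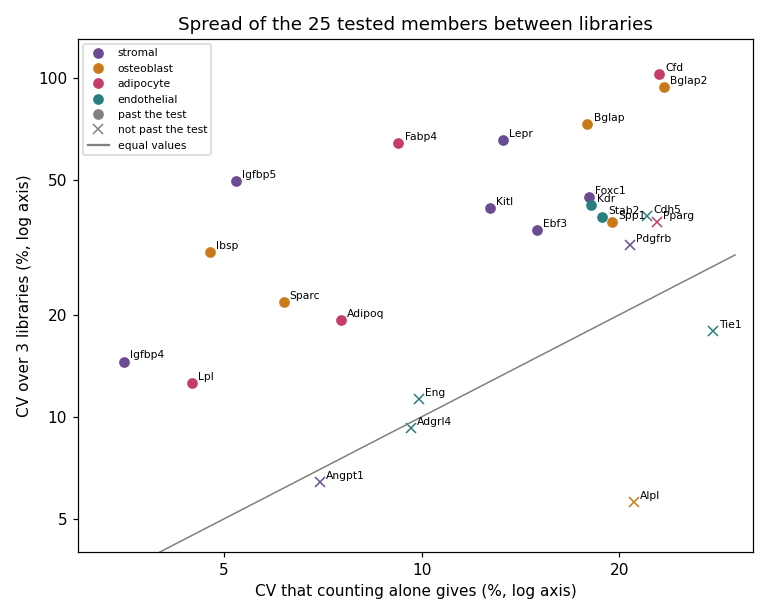
CV of each of the 25 tested members over the 3 vehicle libraries against the CV that counting alone would give, both in percent on log axes, with the grey line marking equal values. Filled points passed the exact binomial test and crosses did not, and Angpt1, Adgrl4, Tie1 and Alpl lie below the line while Cfd and Bglap2 lie highest.

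Of 13 partner ligands and receptors, 10 were tested and 4 differed, beside 55.6% of all genes. With TMM scaling 5 differed, beside 50.8% of all genes. Lowest in replicate 3 were 4 of the 10, near the 42.4% of all genes. Kit, the receptor of stem cell factor, had 17.2, 22.6 and 20.1 CPM in replicates 1, 2 and 3 (adjusted p = 0.129, exact binomial, and 0.00872 with TMM scaling), where Kitl was lowest in replicate 3. The leptin gene Lep had 0 reads in all libraries. Vegfa, the ligand of Kdr, had 32.5, 29.4 and 31.4 CPM (adjusted p = 0.965, exact binomial), and Vegfc, the ligand of Flt4, had 9, 9 and 1 reads. Kit and Vegfa were not lowest in replicate 3, where Kitl and Kdr were, while Vegfc was lowest there, as was Flt4. Angpt2, the context-dependent ligand of Tek, had 6.44, 6.91 and 4.16 CPM (adjusted p = 0.0630, exact binomial), highest in replicate 2 and lowest in replicate 3. Pdgfa and Pdgfb, ligands of the platelet-derived growth factor receptors, had 11, 19 and 9 reads and 1, 6 and 6 reads. Among the other partners, Igf1r, the receptor of insulin-like growth factor 1, had 159.6, 131 and 152 CPM (adjusted p = 1.32e-05, exact binomial), lowest in replicate 2 as was Igfbp4. Cd44, a receptor of hyaluronan and osteopontin, had 256, 181 and 197 CPM (adjusted p = 8.75e-26, exact binomial), and leukocytes make it widely.

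Other genes of the same lineages, from lists set beside the members, gave mixed counts, to be read beside the 55.6% of all genes that differed. Of 26 further stromal genes 17 were tested and 10 differed, and 8 of the 17 were called and highest in replicate 2, beside 14.6% of all genes. Vcam1, an adhesion molecule of stroma and macrophages, had 184, 194 and 157 CPM (adjusted p = 1.82e-07, exact binomial). The fibronectin gene Fn1 had 144, 148 and 141 CPM (adjusted p = 0.965, exact binomial, but 0.0191 with TMM scaling). Of 18 further bone genes 9 were tested and 7 differed, 3 of them highest in replicate 1, 2 in replicate 2 and 2 in replicate 3. The type I collagen gene Col1a1 had 36.8, 17.4 and 15.7 CPM (adjusted p = 5.71e-21, exact binomial), highest in replicate 1 as were the osteocalcin genes. Runx2, the master factor of bone formation, had 33.0, 29.1 and 38.3 CPM (adjusted p = 0.0212, exact binomial). Col1a2, of the same collagen, had 94.2, 72.8 and 52.6 CPM, lowest in replicate 3 (adjusted p = 3.26e-18, exact binomial). Of 18 further fat genes 14 were tested and 6 differed, and of 27 further endothelial genes 15 were tested and 3 differed. Pecam1, an adhesion molecule that leukocytes and platelets share with endothelium, had 28.2, 25.5 and 32.3 CPM (adjusted p = 0.0888, exact binomial, but 0.00743 with TMM scaling). The fat genes were led by Acsl1, an acyl-CoA synthetase, at 102, 124 and 111 CPM, lowest in replicate 1 (adjusted p = 0.00154, exact binomial). The median tested gene of the further stromal list deviated by 0.31 log2 units in replicate 2, that of the further bone list by 0.03, and those of the further fat and endothelial lists by -0.03 each. In replicate 3 the medians were -0.11, -0.01, 0.03 and -0.15 for the further stromal, bone, fat and endothelial lists, beside -0.42 for the members and -0.06 for all genes.

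Markers of tissue that could be carried along in dissection were also summed. Chondrocyte markers summed to 0.438 to 1.85 CPM over 6 genes, highest in replicate 1, with Acan at 0 reads. These sums rest on 17, 9 and 4 reads in replicates 1, 2 and 3, and all 6 genes were under the minimum for the test. Skeletal muscle markers summed to 13.6 to 17.2 CPM over 8 genes, with Myh4 at 0 reads, beside 32.6 to 41.6 CPM for the endothelial members. The osteoclast protease gene Ctsk had 30, 6 and 13 reads, highest in replicate 1 as were Bglap and Col1a1 (adjusted p = 0.00242, exact binomial). Acp5, which made up 92.7% of the osteoclast marker sum on average, was instead highest in replicate 3. It had 29.9, 23.3 and 32.1 CPM in replicates 1, 2 and 3 (adjusted p = 0.00512, exact binomial). B cell markers, of cells that share the stromal list gene Ebf1, summed to 629.6, 629.6 and 521 CPM over 8 genes, none at 0 reads in all libraries. Whether the amount of bone carried into a library has a part in these differences was not tested.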

How the data were processed

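Bone marrow RNA of 3 vehicle libraries was analysed. Per the labels' protocols, RNA was taken with Trizol and 500 ng went into Lexogen QuantSeq libraries. Bowtie2, bedtools and mm10 are named in the submitters' processing notes. The sources used here give no tool version, gene annotation, strand setting or rule for reads with several matches.

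The authors deposited log2 values per gene symbol, which the values show to be log2(x + 1), where x counts reads per 1000000 of a library size they scaled. In each library, x was a whole multiple of 1 step for 100% of entries (tolerance 1e-06), so whole reads were recovered. CPM and all tests use these reads and their library totals.

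Each gene with at least 30 reads over 3 libraries was tested by setting each library against the remaining 2 in an exact binomial test, doubling the smaller tail. The smallest p-value was multiplied by 3 and adjusted by Benjamini-Hochberg over all 11833 genes, with 0.05 as threshold. The test sets the spread against counting noise only. Intervals are exact 95% (Clopper-Pearson). Deviations are log2 of CPM with 0.5 reads added. Positions and overlaps came from GENCODE M21 on GRCm38, with 34 of 34 members matched, and promoters from RefSeq. Python 3.11.15 with scipy 1.17.1 was used.

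The members, the gene lists and the tests were chosen with earlier results of these data known. Every member is named, with 7 partner genes and up to 3 of the most abundant genes of each other list. Other names were chosen after their values were seen. Alternatives covered scaling, totals, read minimums, the test (chi-square), the class summary and leaving out each library.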

Additional observations from a re-analysis of the deposited data

How the results depend on the processing

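The counts of members differing, and of tested or called members lowest in replicate 3, stayed within 1.5 times their value under 4 other scalings of the totals and 2 lower read minimums, as did the first under a chi-square test. Leaving out 1 library moved the members differing from 17 to 10 to 12, all genes differing from 6584 to 3781 to 4318, and the further lineage and partner genes differing from 29 to 13 to 22, with fewer reads and 1 comparison by construction. No called member's difference between its outlying library and the others changed sign, but with TMM scaling Lpl was lowest in replicate 1 (52.2, against 53.4 in replicate 3). Totals without Rn45s and globin entries raised all levels, to 274, 136, 143 and 54.9 CPM for the stromal, osteoblast, adipocyte and endothelial sums. Without the most abundant member these were 93.001, 41.1, 38.5 and 24.6 CPM. The log2 ratios to the endothelial sum became 1.87, 0.72 and 0.59 for the stromal, osteoblast and adipocyte classes without the most abundant members. With medians of log2(CPM + 1) in place of sums they were 0.72, 0.061 and 1.01, so the order of classes depends on a few abundant genes. With 1 group there is no paired analysis. Members under 30 reads were below what the test was run on, and 3 libraries limit every spread.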
